A study of Homo sapiens with 45 samples.

Results

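RDES (RD-ES in the labels) is an established human Ewing sarcoma cell line, and 3 of the 45 RNA libraries of the series came from it. They were set against 18 libraries of the 6 other Ewing sarcoma lines, A673, EW3, EW24, MHHES1, SKES1 and TC71, each with 3 libraries. All 21 libraries held poly(A) RNA of parental cells, with no treatment or introduced construct named in the labels. Another 18 libraries from 6 osteosarcoma lines were used only as an outside reference, and 6 libraries of A673 cells with the sh908 hairpin were not analysed here. Each comparison below therefore sets 1 cultured line against 6 others. The labels do not say that the 3 libraries of a line came from separate cultures.

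Ewing sarcoma arises in bone or soft tissue and carries a gene fusion that joins EWSR1 to a transcription factor gene of the ETS family, usually FLI1 and less often ERG. The fusion protein binds GGAA repeats, where it opens chromatin, and it switches on genes such as NR0B1, NKX2-2 and STEAP1 while silencing mesenchymal genes. Lines that share this driver still differ in the other lesions of their tumours, in gains and losses of chromosome arms, and in the developmental genes they express.

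Totals were 23826654, 35950430 and 51413254 estimated counts in the RDES libraries and 23132161 to 46310249 in the other 18 Ewing libraries. RDES libraries had 15284 to 15744 genes at 1 TPM or more (an abundance scaled for transcript length and depth), beside 13097 to 15696 in the other 18. Pearson correlations of log2 CPM (counts scaled for depth) across 20756 genes were 0.989 to 0.992 among the RDES libraries. Across lines they were highest with MHHES1 (0.914 to 0.921) and lowest with TC71 (0.868 to 0.886). TC71 replicate 3 stood apart, with the fewest genes (13097) and the largest share of TPM in ribosomal protein genes (27.5%), and EW3 replicate 1 by the highest value of 22 of 23 amino acid stress response genes. Values without them are given below. These correlations run across genes, which are not independent replicates.

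FLI1, CD99 and NKX2-2, which mark the tumour, were all present in RDES. FLI1, the usual fusion partner, measured 33.2, 35.2 and 27.3 TPM, against 1.51 to 46.5 TPM (median 36.4) in the other 18 libraries. ERG was listed at 0 in all 3 RDES libraries. The low FLI1 values and the only ERG level above 1 TPM both belonged to EW3 (2.08 and 34.8 TPM, means of 3). CD99, the surface antigen used in diagnosis, measured 1479, 1565 and 1886 TPM in RDES and 277 to 1818 TPM in the others, so the groups overlapped. NKX2-2, a homeodomain factor and diagnostic marker, measured 138, 149 and 129.6 TPM, above the 14.7 to 121 TPM of every other library. NR0B1, an orphan nuclear receptor that the fusion switches on through a GGAA repeat, went the other way. It measured 0.315, 0.204 and 0.431 TPM in RDES, from 30 estimated counts in all, against 0.475 to 237 TPM elsewhere (median 72.4). MHHES1 was the nearest line at 0.651 TPM, and A673, the next, measured 51.01 TPM. In RDES and MHHES1, NR0B1 was thus near absent beside FLI1 at 31.9 and 44.6 TPM. STEAP1, a surface metalloreductase, measured 95.02, 97.3 and 80.9 TPM, below all other libraries (132 to 373 TPM). EWSR1 itself measured 219.7, 259 and 291.96 TPM, inside the range of the others (192 to 341 TPM).

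A count model was fitted to all genes, with the 3 libraries of each line summed so that 1 RDES sum stood against 6. It called 1 of 25644 genes (0.0039%) at a false discovery rate (FDR) under 0.05 by edgeR's quasi-likelihood test, and at an unadjusted p under 0.05 it had 480 genes (1.87%) higher and 404 (1.58%) lower in RDES. The called gene was ZNF728, with a log2 fold change of 7.65 (SE 0.53, FDR 0.0297). It passed in no fit that left out any of the 6 other lines and not with an offset for transcript length, 0 genes being called in each, and on the same sums DESeq2 called 115 genes (0.448%), 48 higher and 67 lower. The balance of directions depended on the tool, since limma with the line as a random effect called 359 higher and 27 lower (1.86% of 20756 genes). The same model with another line in place of RDES called between 0 (MHHES1, SKES1) and 18 genes (EW3, EW24). With 1 line on 1 side, an exact permutation test of a single gene cannot go below 0.143, so none was made.

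The pattern was therefore described by rank. Of 18800 genes with a mean of at least 1 TPM in some line, 1837 (9.77%) were above all 18 other Ewing libraries in each RDES library, and 441 (2.35%) were below all of them. These genes are called highest and lowest in what follows. Highest genes made up 80.6% of both sets. On TMM-scaled log2 CPM, a scale that corrects for unequal RNA composition, the counts were 1022 (5.44%) and 886 (4.71%) and the share 53.6%. Of the 1837 highest genes 1005 were also highest on that scale, and of the 441 lowest genes 432 were also lowest. A gene said below to be extreme by TPM only lost that rank on the TMM scale. RDES had more highest genes by TPM than any other line except EW3 (1983), but on the TMM scale EW3 (1553), TC71 (1206) and A673 (1144) had more. Without TC71 1994 genes were highest and 583 lowest, and without EW3 2759 and 674. Without EW3 replicate 1 alone the counts were 2024 and 506, and without TC71 replicate 3 they were 1849 and 514. The 18 osteosarcoma libraries were passed too by 945 of the 1837 highest genes (51.4%) and by 125 of the 441 lowest (28.3%). Of the 18800 genes, 407 reached 1 TPM in RDES only and 245 of them were highest. Such genes could not have been counted as lowest. Without them 1592 of 18393 genes (8.66%) were highest and 441 lowest, and 807 (4.39%) were highest on the TMM scale. At the edge of the rule, ERICH1 was just inside and CCDC102A just outside the highest set, HNRNPL just inside and FKBP3 just outside the lowest.

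**Figure D1:**
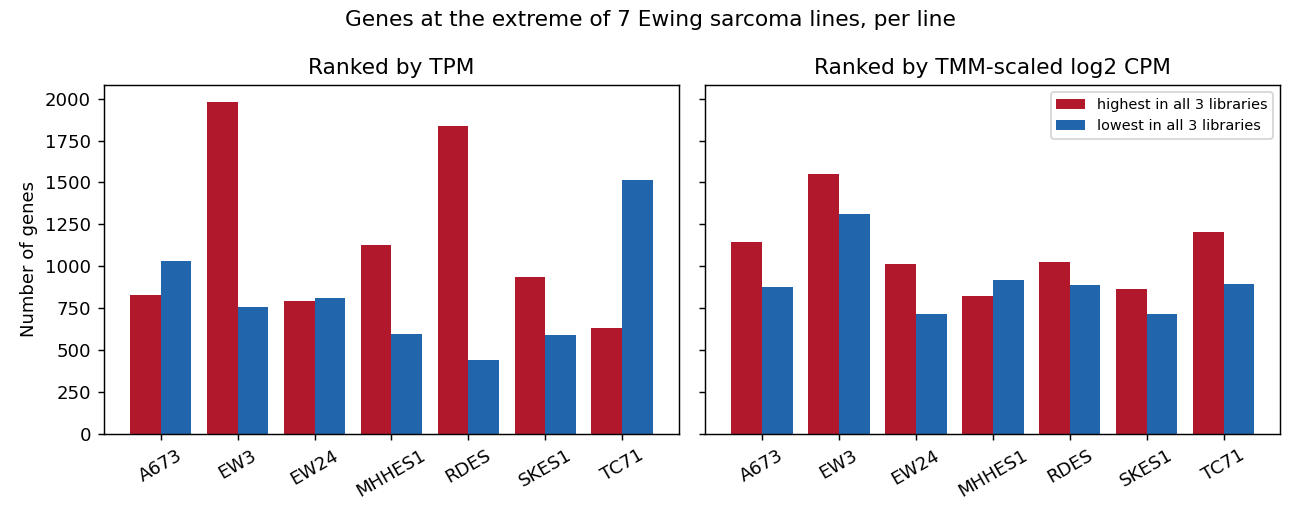
Number of genes (y axis) highest or lowest in all 3 libraries of a line among 21 Ewing libraries, for each of 7 lines (x axis), ranked by TPM on the left and by TMM-scaled log2 CPM on the right. RDES has 1837 highest and 441 lowest genes by TPM, but 1022 and 886 on the TMM scale.

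The 12 genes with the largest gap between RDES and the nearest other library were led by a membrane glycoprotein. PDPN (chr1:13583757-13617957, GRCh38.p14) encodes podoplanin, a mucin-like surface protein of lymphatic endothelium, podocytes and bone cells. It measured 68.1, 64.1 and 70.7 TPM in RDES and 0 to 1.25 TPM elsewhere (median 0.0986), so RDES was 62.3-fold above A673, the next line. Among osteosarcoma lines PDPN spanned 0.0365 to 60.6 TPM, all below RDES. GALNT9 (chr12:132196372-132329589), a brain-enriched enzyme that starts mucin-type O-glycosylation, measured 40.7, 51.9 and 52.7 TPM against 0.0940 to 1.08 TPM (median 0.429). For both genes the RDES libraries lay together, far above all others. In bulk RNA a level spread over all cells and a high level in some of them cannot be told apart.

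Another 2 of these 12 encode developmental transcription factors. LHX5 (chr12:113462033-113471871), a LIM homeodomain factor of the developing forebrain, measured 20.5, 22.04 and 16.9 TPM, while the 18 other libraries together held 9 estimated counts and none passed 0.128 TPM (0.0570 without MHHES1 replicate 3). FOXC2 (chr16:86566829-86569728), a forkhead factor of mesenchyme and lymphatic vessels, measured 37.7, 33.3 and 39.1 TPM against 0 to 5.34 TPM (median 0.0810). The next line was TC71, at 4.47 TPM. The next 5 genes were picked after their values were seen, for being highest on both scales, and homeobox and SOX genes were not counted as classes. TLX1, a homeobox gene, measured 37.3 ± 3.98 TPM in RDES (SD, n = 3) against 0 to 6.14 TPM in the other libraries. For DLX2, a factor of forebrain and branchial arches, the values were 85.8 ± 13.3 TPM and 0.819 to 26.3 TPM. BARX1, which acts in jaw and stomach mesenchyme, stood at 131 ± 11.02 TPM against 0 to 28.99 TPM. SOX17, an endoderm and endothelial factor, stood at 53.7 ± 12.1 TPM against 0 to 12.3 TPM (at most 7.97 TPM without EW3 replicate 1). The RNA-binding protein LIN28A, which blocks let-7 maturation in early embryonic cells, stood at 6.58 ± 1.15 TPM against 0.0557 to 0.384 TPM (from 0.0862 TPM without EW24 replicate 3). That no other Ewing library reached the lowest RDES library follows from how these 5 genes were picked.

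3 more encode matrix or adhesion proteins. COL11A1 (chr1:102876473-103108522), a fibrillar collagen chain of cartilage, measured 43.5, 34.1 and 65.3 TPM, a spread of SD 16.001 around 47.6, against 0 to 5.21 TPM (median 0.0462), with an upper end of 3.27 TPM without MHHES1 replicate 3. Only MHHES1 held more than 1 TPM among the others (3.70 TPM). COL22A1, a collagen of tissue junctions, measured 12.998, 14.1 and 16.1 TPM against 0 to 0.764 TPM (median 0.0720), and the osteosarcoma line G292 was higher still (96.1 TPM). MXRA8, an adhesion protein that also serves as an alphavirus receptor, measured 102, 97.3 and 109.97 TPM against 0.588 to 16.5 TPM (median 5.39). Its lower end elsewhere was 0.900 TPM without A673 replicate 1. MXRA8 was abundant in osteosarcoma lines, at 54.6 to 192 TPM, and 3 of those 6 lines lay below RDES.

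Of the rest, PYCARD, the adaptor of inflammasomes, measured 12.9, 11.3 and 13.99 TPM against 0 to 1.18 TPM (median 0.206). UBD, a ubiquitin-like modifier encoded in the major histocompatibility region, measured 5.72, 6.22 and 6.02 TPM, with 3.78 estimated counts in all 18 other libraries. M1AP, a meiosis gene, measured 5.18, 5.31 and 5.55 TPM against 0 to 0.243 TPM (median 0.102). None of these 3 had an FDR under 0.05 (M1AP 0.129, UBD 0.459, PYCARD 0.926), and the lowest FDR among the 12 was that of M1AP. ZNF729 and ZNF98 completed the 12 and are taken up with their neighbours below.

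The lowest genes were fewer, and some had wide gaps. TNFAIP6 (chr2:151357592-151381340), a hyaluronan-binding protein that is secreted on inflammatory stimulation, measured 0.619, 0.487 and 0.567 TPM in RDES, 37 estimated counts in all. The other libraries held 14.9 to 139 TPM (median 48.5), so the next lowest line was 29.9-fold above RDES. BCHE, butyrylcholinesterase, measured 1.39, 2.15 and 1.56 TPM against 13.2 to 112 TPM (median 19.2), with an upper end of 69.8 TPM without EW3 replicate 1. TGFB1 (chr19:41330323-41353922), the ligand TGF-beta 1, measured 18.4, 17.3 and 18.6 TPM against 58.1 to 145 TPM (median 75.8), a log2 fold change of -2.55 (SE 0.48, FDR 0.550). RDES also lay below all 6 osteosarcoma lines in TGFB1 (42.6 to 337 TPM).

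PDLIM5, a PDZ and LIM domain protein of the actin cytoskeleton, measured 2.06, 2.05 and 2.01 TPM against 6.41 to 57.9 TPM (median 30.1). ABTB2 measured 1.19, 1.28 and 1.41 TPM against 4.62 to 30.1 TPM (median 15.6). APELA, the peptide ligand of the apelin receptor, measured 1.71, 1.38 and 1.39 TPM against 5.17 to 55.2 TPM (median 17.2). In each of the 3 the RDES libraries were close together and the other lines were spread over several-fold ranges. COL16A1, a collagen of the fibril-associated class, measured 1.38, 1.69 and 1.37 TPM against 4.99 to 157 TPM (median 48.1). EGFLAM, which encodes the synaptic matrix protein pikachurin, measured 14.3, 13.7 and 14.2 TPM against 31.2 to 134 TPM (median 65.9). These were matrix genes too, at the opposite end from COL11A1 and COL22A1.

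DMAC1, RRAGA and HOXB3 were also among the 12 lowest. DMAC1, an assembly factor of respiratory complex I, measured 6.56, 5.99 and 7.74 TPM against 17.2 to 33.1 TPM (median 22.9). RRAGA, a GTPase that signals amino acid supply to mTORC1, measured 19.8, 19.7 and 20.6 TPM against 42.9 to 98.9 TPM (median 55.5). Both lie on the first 20 Mb of chromosome 9, described below. HOXB3 measured 0.815, 1.26 and 1.40 TPM against 3.98 to 11.8 TPM (median 7.29).

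**Figure D2:**
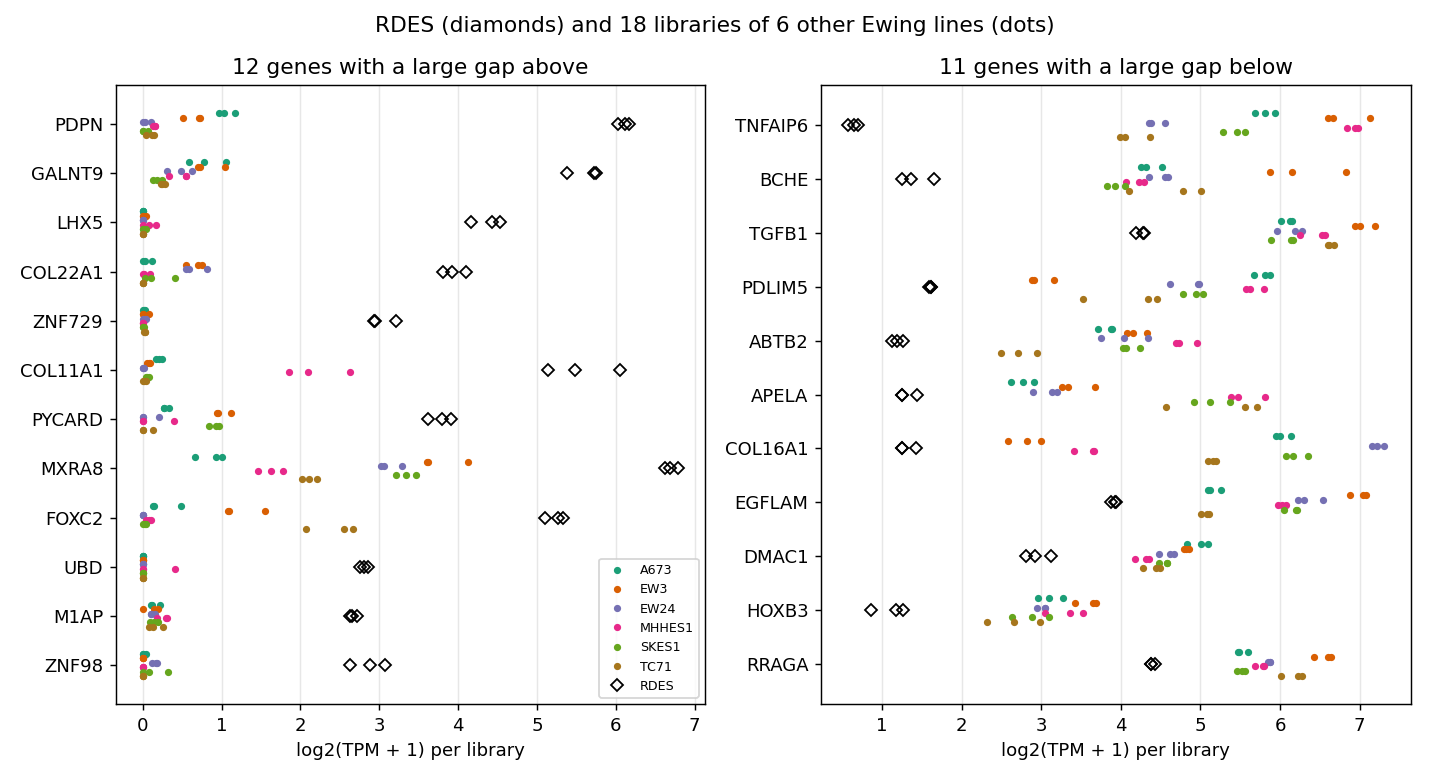
Values of log2(TPM + 1) per library (x axis) for the 12 highest genes and 11 of the 12 lowest genes by gap (y axis, by gene), with RDES as open diamonds and the 18 libraries of other Ewing lines as coloured dots. In every one of these 23 genes the 3 diamonds lie outside the dots, at 68.1, 64.1 and 70.7 TPM for PDPN and 0.619, 0.487 and 0.567 TPM for TNFAIP6.

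Some of the highest genes were neighbours on the genome. By TPM, 3 or more neighbouring counted genes were all highest in 87 places, 303 genes in all, and 7 such runs of lowest genes held 22. Runs were not counted on the TMM scale. Highest genes outnumbered lowest by TPM (1837 and 441), and on the TMM scale the totals were closer (1022 and 886). The longest run had 9 zinc finger genes at chr19:21939815-23003176 (GRCh38.p14). Its length rests in part on the filter, since ZNF728, ZNF729, ZNF98, ZNF99 and ZNF723 reached 1 TPM in RDES only. Among genes that reached 1 TPM in another line there were 65 runs of highest genes with 224 genes, of which ZNF208, ZNF257, ZNF676 and ZNF492 formed 1, and the longest, with 8 genes, was on chromosome 12. KRAB zinc finger proteins of this kind bind DNA, most often transposable elements, and recruit the repressor TRIM28, and their genes arose by local duplication. For that reason reads can be shared between copies, and the level of each single gene here is uncertain. RefSeq promoter sequences of build GRCh38.p14 were at hand for 4 of the 9 genes. They are printed to show how alike the copies are, 250 bases up to the start site, 5′ to 3′ on the gene's strand, with each CG in capitals. That of ZNF723 precedes a start site inside the gene, whose annotated start is at 22812218, and the bases after that site were not found in a GENCODE transcript of ZNF723.
ZNF208 (chr19:22010944-22011193, minus strand): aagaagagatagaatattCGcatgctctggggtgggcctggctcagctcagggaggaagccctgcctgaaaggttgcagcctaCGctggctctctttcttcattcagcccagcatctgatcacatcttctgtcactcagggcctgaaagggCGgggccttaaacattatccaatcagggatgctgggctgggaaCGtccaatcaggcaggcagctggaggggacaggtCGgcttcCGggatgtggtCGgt
ZNF257 (chr19:22052234-22052483, plus strand): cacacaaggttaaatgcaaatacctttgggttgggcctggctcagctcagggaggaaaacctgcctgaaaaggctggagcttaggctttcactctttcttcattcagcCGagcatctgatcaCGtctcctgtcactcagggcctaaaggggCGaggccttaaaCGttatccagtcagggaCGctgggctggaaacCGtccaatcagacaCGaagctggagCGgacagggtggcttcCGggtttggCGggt
ZNF492 (chr19:22634074-22634323, plus strand): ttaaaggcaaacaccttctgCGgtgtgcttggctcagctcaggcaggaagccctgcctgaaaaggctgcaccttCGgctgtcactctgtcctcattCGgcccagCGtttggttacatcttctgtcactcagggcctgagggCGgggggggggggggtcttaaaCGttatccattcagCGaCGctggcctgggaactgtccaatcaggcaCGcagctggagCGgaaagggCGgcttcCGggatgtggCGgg
ZNF723 (chr19:22832041-22832290, plus strand): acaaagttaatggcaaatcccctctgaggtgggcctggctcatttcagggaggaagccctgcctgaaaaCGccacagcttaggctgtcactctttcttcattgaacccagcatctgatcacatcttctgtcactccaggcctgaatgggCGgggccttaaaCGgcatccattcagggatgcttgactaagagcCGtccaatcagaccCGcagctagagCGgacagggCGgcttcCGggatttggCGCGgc
Aligned in pairs, the 4 sequences had between 76.0% (ZNF492 and ZNF723) and 81.4% (ZNF257 and ZNF723) identical positions. ZNF208 held 7 CG, ZNF257 and ZNF723 held 10 each and ZNF492 held 13. The median was 11 over all 27305 promoters of the table and 20 over the 13338 promoters of counted genes.

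Levels in this run were low in most Ewing lines and well above them in RDES. ZNF728, the called gene, rose in RDES. It measured 6.24, 5.75 and 9.32 TPM against 0 to 0.406 TPM (median 0.0263), and the 18 other libraries held 18.4 estimated counts together against 855 in RDES. ZNF729 measured 8.27, 6.73 and 6.62 TPM against 0 to 0.0583 TPM (median 0.00696), with 1415 estimated counts against 14.5. ZNF98 measured 7.43, 6.35 and 5.17 TPM against 0 to 0.248 TPM (median 0). These 3 were close to undetected outside RDES. Their upper ends elsewhere were each set by 1 library (MHHES1 replicate 2, EW3 replicate 1 and SKES1 replicate 1) and lay at 0.263, 0.0257 and 0.135 TPM without it. ZNF208 measured 14.4, 14.1 and 11.7 TPM, ZNF257 5.998, 5.81 and 4.45 TPM and ZNF676 5.10, 3.50 and 3.63 TPM. In those 3 the next line was EW24, at 5.40, 1.29 and 1.34 TPM. ZNF492 measured 6.33, 6.44 and 5.07 TPM with SKES1 next at 2.56 TPM, and ZNF99 (2.23, 1.45 and 1.33 TPM) and ZNF723 (1.54, 1.12 and 1.36 TPM) were the weakest of the run. ZNF723 had the second smallest p among the 9 after ZNF728, with a log2 fold change of 5.30 (SE 0.49, FDR 0.108).

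The next run held 7 zinc finger genes at the end of chromosome 12 (chr12:132918306-133214832): ZNF605, ZNF26, ZNF84, ZNF140, ZNF891, ZNF10 and ZNF268. Here every line expressed the genes and the distances were smaller. ZNF84 measured 48.2, 45.7 and 40.005 TPM against 6.46 to 24.2 TPM, 2.09-fold above the next line, and ZNF26 measured 16.03, 16.4 and 12.6 TPM against 4.62 to 10.9 TPM, 1.43-fold above it. The third run, at chr20:32277651-32809356, held KIF3B, ASXL1, NOL4L, COMMD7, DNMT3B and 1 uncharacterised locus. Another run of 6 highest genes, at chr20:46366050-46736347, was as long and came later in map order. ASXL1, a Polycomb-linked chromatin regulator, measured 77.8, 79.8 and 81.98 TPM against 20.1 to 59.2 TPM. TC71 replicate 3 set the lower ends for ZNF84 and ASXL1, which lay at 11.2 and 35.4 TPM without it. DNMT3B, a de novo DNA methyltransferase, measured 20.9, 20.4 and 22.6 TPM against 2.22 to 18.6 TPM. KIF3B and COMMD7 were highest by TPM but not on the TMM scale.

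Zinc finger genes as a class were counted from lists made after values were seen. On chromosome 19, 37 of 235 were highest and 3 lowest, and on other chromosomes 40 of 220 were highest and 1 lowest, beside 9.77% and 2.35% of all genes. On the TMM scale these counts were 32 and 10, and 26 and 4, beside 5.44% and 4.71% of all genes. Without the genes that reached 1 TPM in RDES only, 29 of 227 (12.8%) and 38 of 218 (17.4%) were highest by TPM, beside 8.66% of all genes. Their median log2 fold changes were 0.11 and 0.13, beside -0.14 for all genes fitted.

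**Figure D3:**
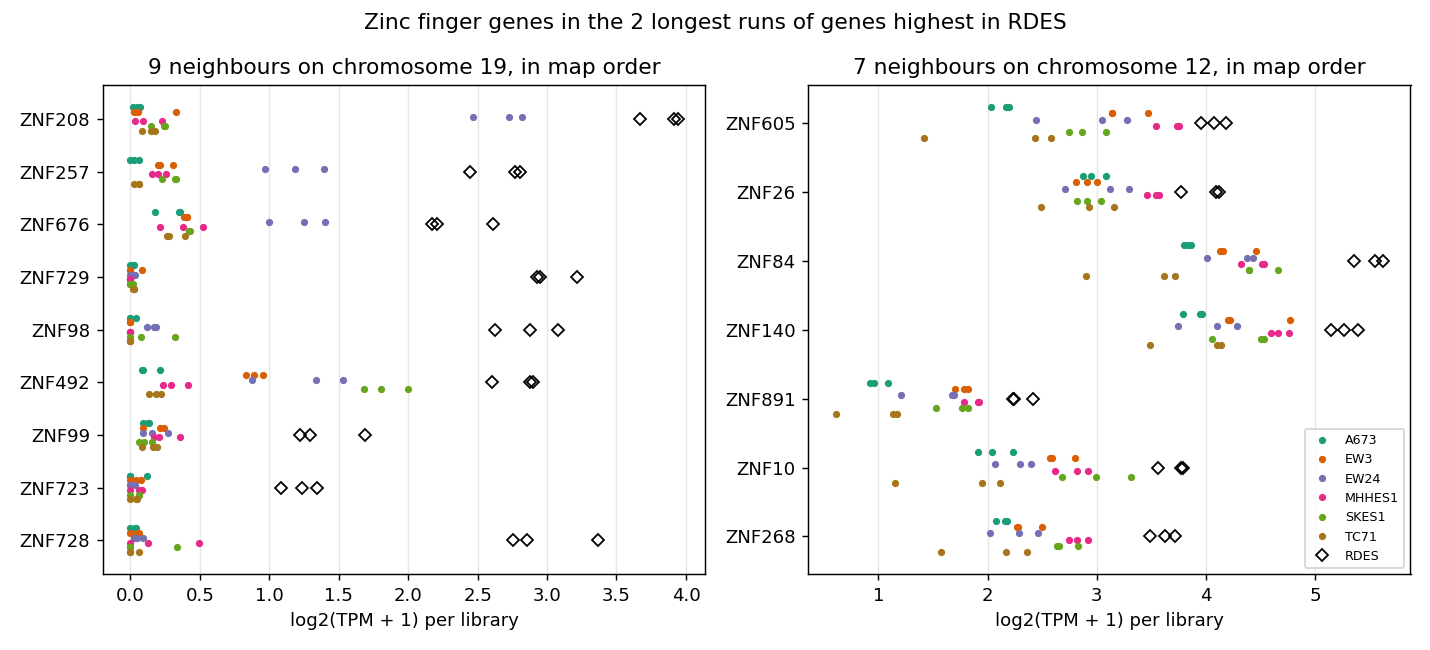
Values of log2(TPM + 1) per library (x axis) for the zinc finger genes of the 2 longest runs (y axis, in map order), RDES as open diamonds and the other Ewing libraries as coloured dots. On chromosome 19 most other lines sit near 0 and EW24 comes closest for ZNF208 (5.40 TPM), while on chromosome 12 all lines express the genes and RDES is shifted by a smaller amount.

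The share of highest genes also varied by chromosome. The median difference of RDES from the mean of the other 6 lines, in log2(TPM + 1), was 0.19 over all 18800 genes. It was 0.61 on chromosome 11 (SD 0.03 over the 3 RDES libraries), where 260 of 1018 genes (25.5%) were highest and 12 lowest. Each other line, set against the rest in the same way, had a chromosome 11 median between -0.50 and 0.18. Chromosome 20 had a median of 0.49 with 142 of 515 genes (27.6%) highest, and the highest median of another line there was 0.03. Chromosomes 12, 13, 18 and 21 had medians of 0.42, 0.50, 0.41 and 0.44, and chromosomes 1, 10, 16 and X had smaller ones. All of these lay above every other line as well. On the TMM scale 124 genes of chromosome 11 (12.2%) and 65 of chromosome 20 (12.6%) were highest. The part of chromosome 11 from 60 to 80 Mb had 129 of 370 genes highest (56 on the TMM scale) and none lowest. Its part from 80 to 100 Mb had the largest median of the 20 Mb windows, 0.90, with 19 of 70 genes highest (15 on the TMM scale). The part from 20 to 40 Mb went the other way, with a median of -0.29, 0 of 52 genes highest and 4 lowest (10 on the TMM scale). This median lay within those of the other lines (-0.41 to 0.74). That part holds ABTB2.

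Chromosomes 14 and 19 went the other way. Chromosome 14 had a median of -0.17, with 9 genes highest and 36 lowest of 584. Chromosome 19 had -0.12, with 119 of 1284 genes (9.27%) lowest, and its first 20 Mb had 82 of 550. Both medians lay within those of the other lines (-0.19 to 0.21 for chromosome 14, -0.19 to 0.19 for chromosome 19). On the TMM scale 86 genes of chromosome 14 and 203 of chromosome 19 (15.8%) were lowest. Chromosome 5 had a median of -0.07 (other lines -0.39 to 0.19), with 34 genes highest and 46 lowest of 835, and 24 and 76 on the TMM scale. The first 20 Mb of chromosome 9 had the lowest median of the 20 Mb windows, -0.78, with 16 of 67 genes lowest and 2 highest. It holds DMAC1, RRAGA, VLDLR and RPS6, all lowest in RDES. Gene copy number was not analysed here, and its part in these medians was not tested.

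**Figure D4:**
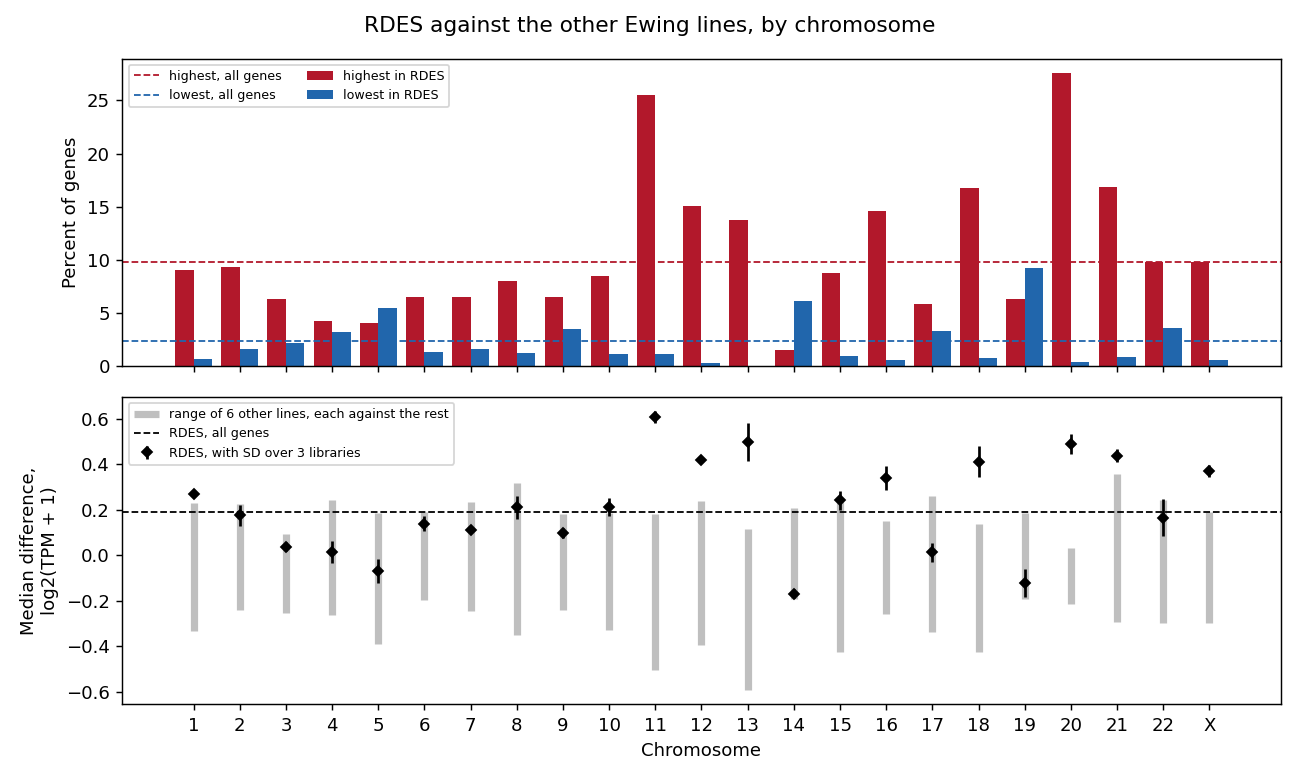
By chromosome (x axis), the percent of counted genes highest (red) or lowest (blue) in RDES above, and below it the median difference of RDES from the other lines in log2(TPM + 1), as diamonds with the SD of 3 libraries, over grey ranges of the 6 other lines each set against the rest. Chromosomes 11 and 20 carry the tallest red bars, at 25.5% and 27.6%, and chromosome 19 the tallest blue bar, at 9.27%.

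Ribosomal protein genes held many of the lowest values in RDES. This list was chosen after values were seen. Of 80 genes, 30 were lowest and 1, RPLP2 on chromosome 11, was highest, and on the TMM scale 43 were lowest and 0 highest. Of all genes 2.35% were lowest by TPM and 4.71% on the TMM scale. The median log2 fold change was -0.79, and the median difference in log2(TPM + 1) -0.43. Summed, they made up 15.2% to 15.9% of TPM in the RDES libraries and 16.8% to 27.5% in the others (at most 22.6% without TC71 replicate 3), without overlap. All 12 on chromosome 19 were lowest, as were 17 of 63 on chromosomes other than 11 and 19. RPS6, the ribosomal S6 protein whose gene lies in the low part of chromosome 9, measured 464, 498 and 481 TPM against 977 to 2939.9 TPM. EEF2, the elongation factor that moves the ribosome along the message, measured 872, 908 and 939.7 TPM against 1821 to 2461 TPM, and RACK1, a ribosome-bound scaffold, measured 1216, 1382 and 1334 TPM against 2044 to 3165 TPM. Both were lowest on either scale and were chosen after their values were seen.

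Genes of the amino acid stress response, in which ATF4 switches on amino acid synthesis and import, had several of the lowest values. Of 23 genes 0 were highest and 5 lowest (21.7%), and on the TMM scale 7 were lowest, beside 2.35% and 4.71% of all genes. The median log2 fold change was -0.94 (-0.79 without EW3), and the median difference in log2(TPM + 1) -0.36 (-0.30 without EW3 replicate 1). EW3 replicate 1 set the upper end of all 5 ranges that follow. ASNS, asparagine synthetase, measured 53.4, 55.3 and 48.95 TPM against 80.2 to 596 TPM, with 595.5 TPM in that library and 92.1 and 85.4 TPM in the other EW3 libraries. STC2, a secreted glycoprotein, measured 1.86, 1.94 and 2.30 TPM against 5.43 to 61.02 TPM, and DDIT4, an mTORC1 inhibitor, measured 7.55, 9.89 and 9.999 TPM against 11.5 to 77.7 TPM. PSAT1, a serine synthesis enzyme, measured 136 ± 11.7 TPM (SD, n = 3) against 163 to 933 TPM. VLDLR measured 0.187, 0.182 and 0.128 TPM against 0.294 to 52.98 TPM. Without EW3 replicate 1 the upper ends were 192 TPM for ASNS, 16.8 for STC2, 68.4 for DDIT4, 341 for PSAT1 and 7.71 for VLDLR, and the same count, 5, was lowest. The next line above RDES in DDIT4 then stood 1.28-fold above it, in place of 2.05-fold. Summed over the list, RDES libraries held 1915 to 2061 TPM and the other line means 2199 to 4593 TPM, so RDES lay below every other line. EW3 replicate 1 alone held 8563 TPM, and without it the other line means reached 2669.7 TPM. Culture conditions were not analysed here.

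**Figure D5:**
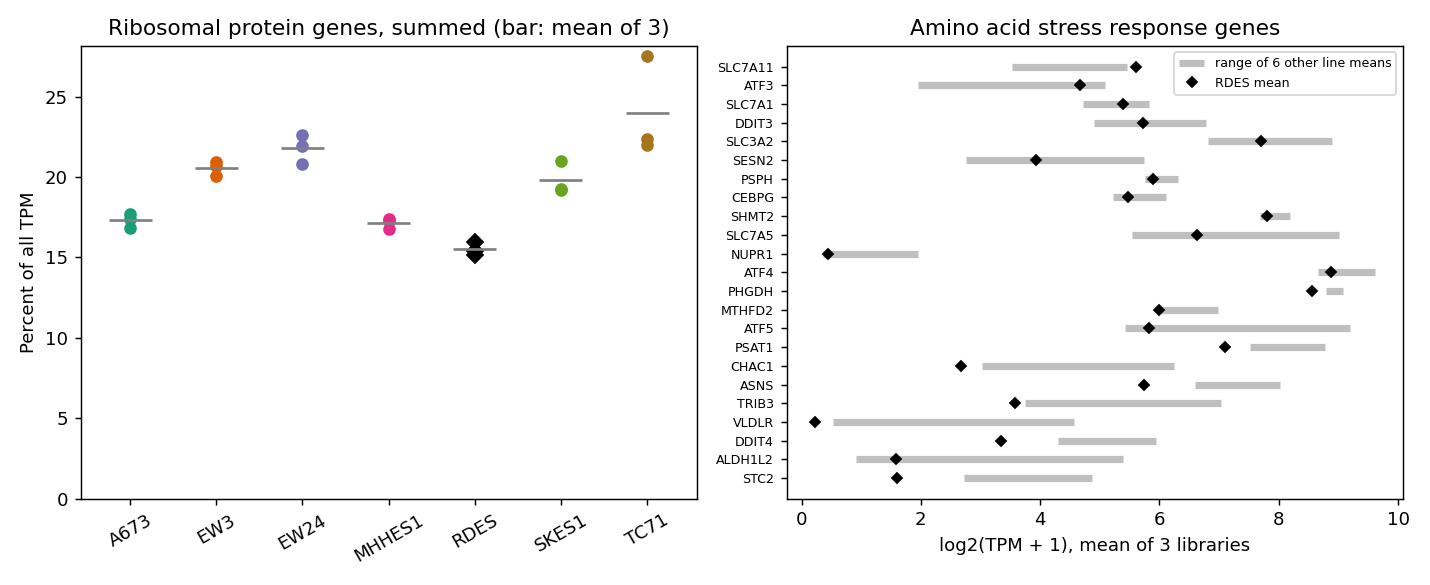
Left, percent of all TPM in ribosomal protein genes (y axis) per library for each line (x axis), with a bar at the mean of 3. Right, log2(TPM + 1) means (x axis) of amino acid stress response genes (y axis), RDES as diamonds over the range of the 6 other line means. RDES has the lowest share, 15.2% to 15.9%, and ASNS, STC2, DDIT4, PSAT1 and VLDLR lie left of their ranges.

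The counts for gene lists below are to be read against 9.77% highest and 2.35% lowest of all genes by TPM, and 5.44% and 4.71% on the TMM scale. Where a list holds genes that reached 1 TPM in RDES only, its count without them is given, to be read against 8.66%. List medians are given as fitted log2 fold changes (-0.14 over all genes), which compare RDES with the average of the other lines on the linear scale, and as differences in log2(TPM + 1) (0.19 over all genes). The sign can differ between the 2.

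Genes known to answer to the fusion were mixed. Of 32 activated genes, 3 were highest (NKX2-2, GLI1 and SOX6, the last by TPM only) and 2 lowest (NR0B1 and STEAP1), and the median log2 fold change was -0.39, while the median difference in log2(TPM + 1) was 0.33. Of 15 repressed genes none was highest or lowest, with medians of -1.64 and -0.35. A short GGAA motif was also counted in promoters. GGAAGGAA, or TTCCTTCC on the other strand, stood in the 250 bases before the start of 2.63% of the highest genes with a promoter sequence and 2.81% of the lowest. The share was 2.90% of counted genes and 2.99% of all promoters of that length in the table. Longer repeats and bases further away were not searched, so a link to the fusion was not tested. Surface antigens of Ewing cells had 2 highest genes of 22, the endothelial adhesion protein MCAM (206, 171 and 239 TPM against 1.21 to 79.8 TPM) and the receptor EPHA2 (134, 125 and 147 TPM against 3.25 to 97.9 TPM, from 5.17 TPM without EW3 replicate 1, by TPM only). STEAP1 was the 1 lowest.

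Hedgehog and Notch pathway genes had 5 highest and 0 lowest members of 21 (23.8% and 0%), and 4 and 0 on the TMM scale. The ligand SHH measured 3.23, 3.21 and 2.42 TPM against 0 to 1.46 TPM (at most 0.856 TPM without MHHES1 replicate 3). GLI1, the transcription factor of the Hedgehog pathway and also a fusion target, measured 24.2, 28.2 and 37.2 TPM against 0.759 to 10.7 TPM, 2.99-fold above the next line. SMO, which relays the signal, measured 88.9 ± 5.46 TPM (SD, n = 3) against 24.96 to 71.5 TPM, by TPM only. NOTCH1 measured 34.9, 29.98 and 36.2 TPM against 4.49 to 25.4 TPM. SHH and GLI1 thus both lay at the top in the same line, neither with a called difference, and the medians of the list were 0.32 as a fold change and 0.77 in log2(TPM + 1).

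WNT pathway genes had 7 highest and 0 lowest of 36 (19.4% highest), and 6 and 0 on the TMM scale. WNT2B, WNT5B and NKD1 reached 1 TPM in RDES only, and without them 5 of 33 (15.2%) were highest. FZD4, a receptor encoded on chromosome 11, measured 144, 122 and 132 TPM against 8.68 to 62.9 TPM. FZD2 (45.3 TPM, other line means 5.87 to 29.1 TPM), FZD3 (27.7, 7.19 to 16.5 TPM) and the co-receptor LRP5 (83.7, 12.8 to 53.7 TPM, by TPM only) were highest as well. The ligand WNT5B measured 1.76, 1.94 and 1.93 TPM against 0.0249 to 1.23 TPM, the secreted inhibitor SFRP1 11.2, 10.5 and 11.6 TPM against 0.0389 to 10.3 TPM, and the feedback inhibitor NKD1 2.05, 1.75 and 2.72 TPM against 0.0637 to 1.06 TPM. For SFRP1 the lower end was 0.0685 TPM without TC71 replicate 3. Activators and inhibitors were both among them.

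In the TGF-beta and BMP pathway 4 of 35 genes were highest (11.4%) and 2 lowest, and 2 and 2 on the TMM scale, so the share of highest genes was near that of all genes on both scales. The lowest were the ligands TGFB1 and TGFB3, and the highest the receptors TGFBR1 and ACVR1B and the signal carriers SMAD4 and SMAD9. TGFB3 measured 1.38, 1.78 and 2.47 TPM against 3.04 to 31.95 TPM. TGFBR1, a type I receptor, measured 11.3, 7.93 and 15.6 TPM against 0.474 to 6.81 TPM, and SMAD9, which carries BMP signals, measured 59.4, 45.3 and 52.2 TPM against 4.64 to 43.9 TPM, both by TPM only. The list medians were -0.15 as a fold change and 0.27 in log2(TPM + 1). Among receptor tyrosine kinases and their ligands 6 of 42 were highest (14.3%) and 2 lowest, and 4 and 3 on the TMM scale. EPHB2 measured 10.8, 12.1 and 14.7 TPM against 0.0572 to 5.92 TPM, and ERBB3 2.59, 2.58 and 4.64 TPM against 0.130 to 2.02 TPM. ALK, the lymphoma and neuroblastoma kinase, measured 0.548, 0.197 and 0.161 TPM against 1.41 to 14.04 TPM, and MET, the hepatocyte growth factor receptor, 0.875, 0.966 and 0.817 TPM against 1.22 to 6.45 TPM (at most 4.25 TPM without EW3 replicate 1). FGFR1, ERBB2, EPHA7 and EPHA2 were the other highest members, the last 2 by TPM only.

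Matrix genes on the list had 7 highest and 0 lowest of 35 (20% highest), and 5 and 0 on the TMM scale. Without VCAN, which reached 1 TPM in RDES only, 6 of 34 (17.6%) were highest. COL16A1 and EGFLAM, lowest above, are not on this list. The list's median fold change was -0.90, but 0.38 in the fit on single libraries, and its median difference in log2(TPM + 1) was 0.13, so the sign depends on the fit. HSPG2, the basement membrane proteoglycan perlecan, measured 34.5, 29.4 and 45.8 TPM against 1.33 to 22.7 TPM, and NID1, nidogen 1, 23.99, 23.7 and 28.1 TPM against 0 to 17.3 TPM. FBLN1 had a mean of 309.7 TPM against line means of 52.2 to 162 TPM, and COL18A1 of 58.2 against 2.503 to 49.3 TPM, the latter by TPM only. VCAN was low but highest, at 1.91, 1.61 and 1.93 TPM against 0 to 0.776 TPM (at most 0.458 TPM without SKES1 replicate 3). Integrins and adhesion genes had 6 highest and 0 lowest of 35 (17.1% highest), the same counts as on the TMM scale, and 5 of 34 (14.7%) were highest without ITGA9, which reached 1 TPM in RDES only. The collagen receptor subunit ITGA1 measured 23.6, 18.1 and 19.1 TPM against 0.750 to 5.11 TPM, with a log2 fold change of 2.63 (SE 0.53, FDR 0.666). ITGA9 measured 3.36, 1.93 and 6.13 TPM against 0 to 1.07 TPM, and the cadherin CDH6 9.07, 7.69 and 9.001 TPM against 0.0657 to 5.77 TPM. Without TC71 replicate 3 the lower ends were 1.13 TPM for ITGA1 and 0.111 TPM for CDH6. Cytokine genes had 5 highest of 23 (21.7%), and 4 on the TMM scale. Without CXCL2 and CX3CL1, which reached 1 TPM in RDES only, 4 of 21 (19.05%) were highest. The related growth factors midkine and pleiotrophin were both among them. MDK, on chromosome 11, measured 1822, 1826 and 1967 TPM against 159.6 to 965 TPM, and PTN 24.7, 25.04 and 23.05 TPM against 0 to 9.02 TPM. TNFSF12 measured 3.15, 3.39 and 4.71 TPM against 0 to 1.42 TPM, and CX3CL1 1.69, 2.06 and 2.73 TPM against 0.0439 to 0.499 TPM. For CX3CL1 the lower end was 0.0799 TPM without MHHES1 replicate 3.

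Several antigen presentation genes were highest. HLA-B measured 211, 219.7 and 222 TPM against 1.17 to 107 TPM, 4.02-fold above MHHES1, the next line. That distance rests on MHHES1 replicate 3 (107 TPM), and without it RDES was 7.85-fold above the MHHES1 mean of 27.7 TPM. HLA-F measured 10.7, 10.7 and 12.3 TPM against 0 to 7.09 TPM, and HLA-G 1.37, 2.31 and 2.19 TPM against 0 to 0.939 TPM. Reads of these near-identical genes can be exchanged, and a line's alleles differ from the reference, so single HLA levels are uncertain. HLA-C was not highest, with a mean of 69.5 TPM (other lines 11.1 to 102). Of 19 class I genes 3 were highest (15.8%). Without HLA-G, which reached 1 TPM in RDES only, 2 of 18 were (11.1%), beside 8.66% of all genes. Both counts were the same on the TMM scale. Of 9 class II genes 3 were highest (33.3%), and 2 on the TMM scale. The 3 were HLA-DMB (7.82, 8.15 and 10.4 TPM against 0 to 5.14 TPM), HLA-DPB1 (8.30, 8.16 and 9.57 TPM against 0 to 7.62 TPM, by TPM only) and the protease CTSS (11.4, 10.1 and 9.56 TPM against 0.175 to 7.18 TPM). Interferon response genes had 0 highest and 0 lowest of 26, with medians of -1.32 as a fold change, -0.23 in the fit on single libraries and -0.20 in log2(TPM + 1). Of 16 blood cell markers 7 reached 1 TPM in some line and could be ranked, and 0 of these 7 were highest or lowest. In RDES 11 of the 16 were under 1 TPM, CD3E was at 0 and PTPRC measured 0.0600 TPM. Their sum was 54.3 to 61.9 TPM in RDES and 22.2 to 231 TPM in the other line means.

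HOX genes, which mark position along the body axis, had 5 lowest members and 1 highest of 30 (16.7% and 3.33%), and 6 and 1 on the TMM scale. HOXB4 measured 0.282, 0.342 and 0.300 TPM against 3.48 to 11.97 TPM, HOXB7 10.2, 9.07 and 8.52 TPM against 17.6 to 63.9 TPM, and HOXB8 0.215, 0.111 and 0.0784 TPM against 0.291 to 4.27 TPM. With HOXB3 these are 4 of the cluster on chromosome 17, and HOXC8 (4.15 ± 0.730 TPM, SD, n = 3, against 5.14 to 15.5 TPM) was the other. HOXD10 stood alone at the top, at 82.8 ± 10.4 TPM against 4.66 to 69.6 TPM. HOXB3, HOXB4 and an antisense gene also formed 1 of the 7 runs of lowest genes. Reads of genes that overlap within the cluster may be shared.

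Among lists of other cell types the fibroblast markers had most extremes. Endothelial markers had 0 highest and 0 lowest of 8, with sums of 111 to 128 TPM in RDES and 104 to 233 TPM in other line means. Of 13 listed, 9 were under 1 TPM in RDES, PECAM1 and VWF among them (0.120 and 0.145 TPM), beside the high PDPN, FOXC2 and SOX17. TIE1, not counted for its low level, measured 0.948 TPM against line means of 0.0263 to 0.0694 TPM. Fibroblast markers had THY1 (108, 115 and 145 TPM against 0.762 to 56.5 TPM) highest and FAP (0.121, 0.123 and 0.0648 TPM against 0.331 to 9.97 TPM), S100A4 (10.7, 12.1 and 12.2 TPM against 13.7 to 90.3 TPM) and TWIST1 (9.45, 9.11 and 6.41 TPM against 15.3 to 272 TPM) lowest, of 11 (9.09% highest and 27.3% lowest, with the same counts on the TMM scale). Their medians were -2.71 as a fold change and -1.25 in log2(TPM + 1). Of the myogenic markers TNNC1 measured 1.99, 1.41 and 2.39 TPM against 0 to 0.698 TPM and with MYL4 reached 1 TPM in RDES only. None of the other 4 that were counted was highest or lowest. MYF5 was at 0 and MYOD1 at 0.0114 TPM. Epithelial (9), neural and neuroendocrine (25) and cancer-testis genes (18) had no member at either extreme, and among 16 neuropeptide genes the receptor NPY1R was lowest (11.8, 13.6 and 8.83 TPM against 22.2 to 276 TPM). TC71 replicate 3 set that lower end, which was 33.9 TPM without it.

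Calcium signalling is the subject of the series, which is about KCNN1, the gene of the calcium-activated potassium channel SK1 (chr19:17951290-18000085). KCNN1 measured 19.2, 19.7 and 24.02 TPM in RDES, second lowest of the 7 lines, within the 6.43 to 50.8 TPM of the others. It lies in the low first 20 Mb of chromosome 19. None of the 4 channel genes counted was highest or lowest. Of 50 calcium handling genes 6 were highest and 2 lowest (12% and 4%), near the share of all genes. CACNA1H, a low-voltage-activated channel pore, measured 61.8, 60.4 and 64.6 TPM against 4.74 to 44.05 TPM. The auxiliary subunits diverged. CACNA2D2 measured 2.58, 2.46 and 3.09 TPM against 0.00926 to 1.40 TPM (from 0.0339 TPM without A673 replicate 1). CACNA2D1 measured 4.52, 4.25 and 3.92 TPM against 5.13 to 36.2 TPM, lowest by TPM only. MCUB, a subunit that damps the mitochondrial calcium uniporter, measured 4.81, 5.61 and 4.76 TPM against 9.76 to 32.4 TPM. ORAI1, the store-operated channel, measured 47.5 ± 1.05 TPM (SD, n = 3) against 10.6 to 42.3 TPM, by TPM only.

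Genes of growth control stood inside the range of the other lines in the main. CDKN2A, which encodes p16 and p14ARF, measured 100.3, 91.5 and 92.98 TPM in RDES, while A673 was listed at 0 and EW24 reached 162 TPM. STAG2, a cohesin subunit often lost in Ewing sarcoma, measured 48.04, 39.4 and 40.6 TPM against 4.79 to 121 TPM, where SKES1 (6.12 TPM) and MHHES1 (10.8 TPM) were lowest. RDES thus had transcripts of both. Of 27 G1 control genes CDKN2D, a cyclin-dependent kinase inhibitor, was the 1 lowest (5.54, 6.17 and 5.59 TPM against 9.06 to 25.3 TPM). Of 43 S phase genes RRM1 and POLD3 were highest and UBR7 lowest, and of 54 G2/M genes CKAP5, CKAP2 and UBE2C were highest. Of these 5 highest genes only POLD3 (99.5, 101 and 107 TPM against 26.2 to 76.3 TPM, from 41.8 TPM without TC71 replicate 3) was so on the TMM scale as well, and RRM1, POLD3 and CKAP5 lie on chromosome 11.

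Transcript shares within genes were compared last. Of 59500 transcripts of 6297 genes, 2 (0.00336%) had a share of their gene's TPM in RDES more than 30 percentage points away from all 18 other libraries. Both belong to RPL17-C18orf32, a readthrough gene on chromosome 18 that joins a ribosomal protein gene to its neighbour. The transcript NM_001199355.1 held 93.8%, 74.1% and 86.6% in RDES and at most 36.7% elsewhere, and NM_001199356.2 held the rest. The gene shares sequence with RPL17, so the assignment of its reads is uncertain.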

How the data were processed

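The study measured poly(A) RNA of human cell lines, and 39 parental libraries were read (3 per line, 7 Ewing sarcoma and 6 osteosarcoma lines). The members and gene lists were chosen with earlier results of these data known. Per the submitters' processing notes, fastp 0.19.5 and kallisto 0.46.2 were used with builds hg38 and GRCh38.p14. The tables that the authors deposited each list 177816 RefSeq transcripts, and per the file headers they hold estimated counts (expected counts, not scaled) and TPM values scaled for effective length and depth. The effective length, another value per the file headers, entered only the length offset.

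Transcripts were joined to genes of the RefSeq annotation of GRCh38.p14, which matched 169966 (95.6%) and gave 41582 genes. Unmatched transcripts held 1.06% to 1.36% of counts in the Ewing libraries and were left out. Counts and TPM were summed per gene, and counts were then summed over the 3 libraries of each line and rounded. The main test was edgeR's quasi-likelihood test on those 7 sums (edgeR 4.0.16, R 4.3.3, filterByExpr, TMM scaling, Benjamini-Hochberg FDR under 0.05). DESeq2 1.42.0 and limma 3.58.1 were alternatives, as were fits on single libraries. The main test was also run on simulated data for RDES against 6 lines, with 24698 genes. It recovered 6 of 100 genes changed by 3 and 43 of 100 changed by 5 on the log2 scale, and it called 3 unchanged genes.

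Highest and lowest genes were taken from TPM, with a mean of at least 1 TPM in some line. Differences of TPM are on the log2(TPM + 1) scale, which understates the change of low genes. The fitted fold change compares RDES with the average of 6 lines on the linear scale, so a list's median fold change can be negative where its median log2(TPM + 1) difference is positive. Named genes were 11 fixed ones, the 12 highest by gap with at least 5 TPM in RDES, the 12 lowest by gap with at least 5 TPM in every other line, up to 4 of each list (highest or lowest, with the largest fold change), and those of the 3 longest runs and of the transcript shares. A tie in length for the third run went to the first in map order. Uncharacterised loci and antisense genes were not named, and a few genes that this rule names are not reported here. Genes outside this rule are values of list members or are said to be chosen after their values were seen. Replicate numbers did not pair the libraries. Same-numbered RDES and other libraries correlated at -0.0637 to 0.141 in their deviations from the line mean. Python 3.11.15 with numpy 2.4.6, pandas 2.3.3 and matplotlib 3.10.9 made the rest.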

Additional observations from a re-analysis of the deposited data

Results flagged for a closer look

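The 6 other lines were examined for 1 line far from the rest in each of 111 genes, as means of 3 libraries. A line was listed when its gap to the nearest other line, divided by the range, passed Dixon's critical value for 6. Chance does so in about 1 of 20 groups of normally distributed values. The means were TPM on the linear scale, so that rate may not hold here. A line was listed for 22 genes, each time a high line. EW3 was that line for ERG (34.8 TPM), BCHE (79.97 TPM), VLDLR (22.6 TPM), ASNS (257.7 TPM) and PTN (8.62 TPM). EW3 replicate 1 carried ASNS and VLDLR. Without it the EW3 means were 88.7 and 7.47 TPM, neither gene was then listed, and EW24 (138 TPM) was the highest line for ASNS.

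MHHES1, the line closest to RDES by correlation, was the high line for 8 genes. These were LHX5 (0.0615 TPM), COL11A1 (3.70 TPM), UBD (0.11 TPM), M1AP (0.201 TPM), HSPG2 (19.1 TPM), HLA-B (54.1 TPM), SHH (1.02 TPM) and ZNF26 (10.5 TPM). MHHES1 replicate 3 carried UBD and HLA-B, which were no longer listed without it (MHHES1 means 0 and 27.7 TPM), and the LHX5 mean was 0.0285 TPM without it.

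EW24 was the high line for HLA-DMB (4.76 TPM), CDH6 (5.43 TPM) and the chromosome 19 genes ZNF208 (5.40 TPM), ZNF257 (1.29 TPM) and ZNF676 (1.34 TPM). SKES1 was it for TWIST1 (256 TPM) and EPHB2 (5.68 TPM, not listed without SKES1 replicate 1), and TC71 for FOXC2 (4.47 TPM) and HOXB8 (3.73 TPM).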

How the results depend on the processing

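The count of called genes was 1 with RLE scaling, with no filter on low counts and without any single RDES replicate (1 to 1). It was 0 with a length offset and without A673, without EW24, without EW3, without MHHES1, without SKES1 or without TC71. DESeq2 called 115 genes and limma with the line as a random effect 386. When libraries rather than lines were the samples, 11203 genes were called, and 11288 with the replicate number as a block. The numbers name libraries and did not pair them, and those 2 fits treat libraries of 1 line as independent. Without EW3, 2759 genes were highest and 674 lowest, and on TMM-scaled log2 CPM 1022 and 886. Leaving out a RDES replicate gave 2040 to 2208 highest and 483 to 558 lowest genes, and leaving out 1 library of another line, an alternative chosen after seeing the data, gave 1847 to 2024 and 442 to 514. The chromosome 14 median was -0.22 among genes of at least 5 TPM in every line. That of chromosome 11 was 0.73 with a pseudocount of 0.1 TPM, 0.66 among genes of at least 5 TPM in every line and 0.58 to 0.62 without a RDES replicate. Signs turned for FLI1 (0.23 in the fits on libraries, with and without the block, and 0.17 by limma), STAG2 (0.20, 0.21 with the block, 0.13 by limma) and UBE2C (-0.0443 without EW3, and -0.0202 to 0.0991 without a RDES replicate). The cause was not tested for any of these. With 1 line against 6, the main test had little power for changes below several log2 units.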
